A study of Mus musculus with 5 samples.

Results

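The plate of mouse embryonic fibroblasts (MEF) is 1 of 5 plates of a study that read the RNA of single cells one well at a time. Each plate held 96 wells, and a cell sorter put 1 cell in each well. A well counted as a cell here when its barcode column held at least 1000 reads on gene rows, with rows of repeats and of mitochondrial genes left out. By that rule 92 of the 96 MEF wells were kept, out of 431 wells kept on the 5 plates, where the design text speaks of 436 cells. The other plates held mouse embryonic stem cells of the R1 line (ES, 3 plates, 93, 66 and 94 wells kept), described as coming from ES cell-derived spheres, and Neuro2A cells (1 plate, 86 wells kept), a mouse neuroblastoma line. MEF and Neuro2A cells grew in the same kind of medium, DMEM with fetal bovine serum, antibiotics, Glutamax and 2-mercaptoethanol, and all cells were freed with TrypLE. The labels do not name a strain, age, passage number or embryo of origin for the fibroblasts, and nothing in them ties the wells to more than 1 culture. The MEF plate is therefore 1 sample, its wells are cells of that sample, and differences from the other plates carry no replicate error on the MEF side.

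Fibroblasts build the connective tissue of the embryo. They secrete fibrillar collagens, fibronectin and proteoglycans into the space between cells, cross-link and trim that matrix with dedicated enzymes, and hold it through integrins coupled to bundled actin. In dishes with serum they often also take on genes of smooth muscle type contraction, which are read by serum response factor and by the YAP and TEAD proteins when cells spread on a stiff surface.

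The 92 MEF wells held 2930884 gene reads, with 1019 in the shallowest, 12749 in the median and 157869 in the deepest well, and 64 of them held 5000 or more. Between 163 and 5337 genes were read per well, with a median of 1668, and 11256 genes had a read somewhere on the plate. Repeats took 23.02% of all reads and mitochondrial rows 10.96%. The reads carry no molecular identifiers, so intervals and limits given here cover counting error only, and in sparse wells a gene without a read may still be expressed. Reads mark the 5′ ends of transcripts and are given in CPM, counts per plate scaled to the plate's gene reads times edgeR's TMM factor. In these plate sums deep wells weigh more. The factor was 0.676 for MEF, 0.985 for Neuro2A and 1.08, 1.35 and 1.03 for ES replicates 1, 2 and 3. CPM therefore do not add up to a common total. Over all genes tested they summed to 1479208 in MEF, 1015002 in Neuro2A and 923261, 740312 and 974460 in the ES plates. Small differences between MEF and another plate depend on this scaling. A value of 3 reads, the limit that a count of 0 allows, stood for 1.52 CPM in MEF and 0.966 CPM in Neuro2A, and for 0.242, 8.71 and 1.37 CPM in ES replicates 1, 2 and 3. All 5 plates used the same 96 well barcodes. Reads of genes particular to 1 plate also turned up on another plate at the same barcodes: ES replicate 3 held a median of 11.4% of the MEF reads of 372 genes, and MEF held a median of 10.1% of the Neuro2A reads of 152 genes. For this reason the values of the 3 ES plates are given one by one throughout, and their comparisons with MEF share those plates.

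The 6 genes used to mark fibroblasts, Col1a1 and Col1a2 (the chains of type I collagen), Thbs1 (thrombospondin 1), Tnc (tenascin C), Lox (lysyl oxidase) and Sparc (osteonectin), were read in nearly every MEF well. All 6 were found in 72 of 92 wells, at least 3 in 88, and no well lacked all of them. Of the 64 wells with 5000 or more reads, 61 had all 6, against 11 of the 28 shallower wells, so the wells with missing markers were mostly shallow ones. Their median depth was 2154 reads in the 20 wells that lacked at least 1 marker. Neuro2A wells, which should lack these genes, had 3 or more of the 6 in 3 of 86 wells, ES replicate 1 in 0 of 93 and ES replicate 2 in 1 of 66. ES replicate 3 stood apart from the other ES plates, with all 6 in 32 of 94 wells.

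Thbs1 was read in 89 of 92 MEF wells (96.7%, exact 95% interval 90.8% to 99.3%), against 3.49% of Neuro2A wells at median depths of 12749 and 26278 reads. With every well thinned to 1000 reads the shares were 87.0% and 0%. Sparc was the marker with the most background: 95.7% of MEF wells (89.2% to 98.8%) and 29.1% of Neuro2A wells, or 84.8% and 3.49% after thinning. Col1a1 and Col1a2 were each read in 91.3% of MEF wells (83.6% to 96.2%), against 4.65% and 5.81% of Neuro2A wells. Tnc was read in 91.3% of MEF wells (83.6% to 96.2%) and Lox in 85.9% (77.0% to 92.3%), and neither had a read in the 86 Neuro2A wells, which allows a share of up to 3.49%. Thinned to 1000 reads, the MEF shares were 77.2% for Col1a1, 81.5% for Col1a2, 77.2% for Tnc and 70.7% for Lox. For the plate as a whole, its label and its marker genes therefore go together. In turn, 12 of the 92 MEF wells had reads of 3 or more of 6 genes used to mark neuroblastoma. Those 6 genes had 393 reads in MEF, against 92405 of the 6 fibroblast markers.

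**Figure D1:**
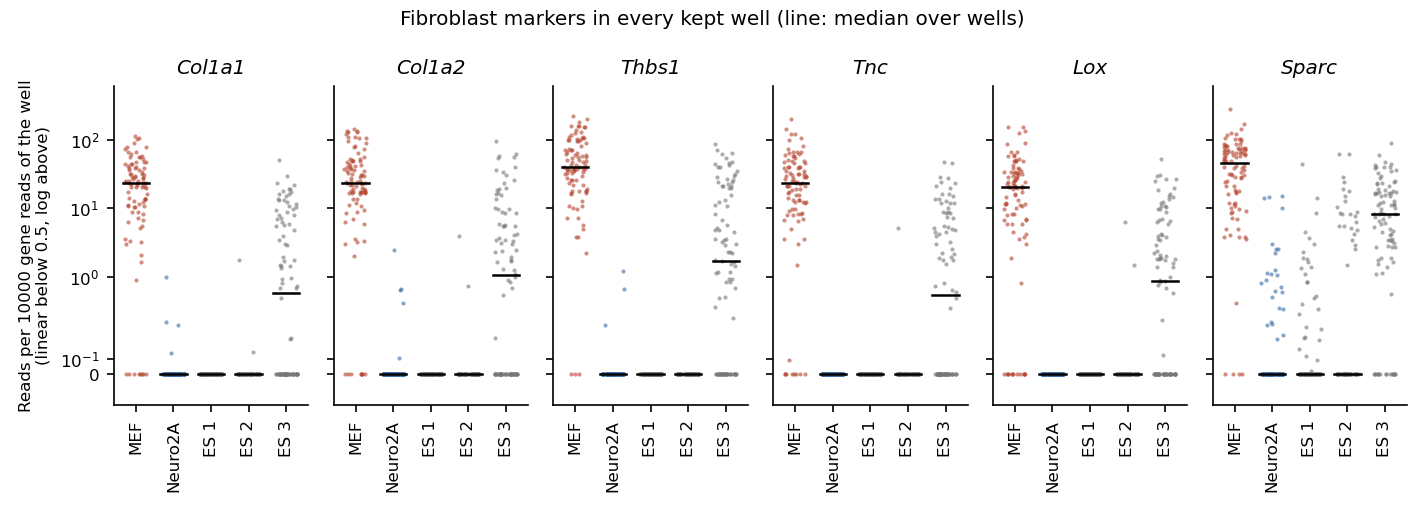
Reads of the 6 fibroblast markers per 10000 gene reads of a well (vertical axis, linear below 0.5 and logarithmic above) in every kept well of the 5 plates (horizontal axis). Points are wells and lines are medians over wells. The MEF medians lie between 20.3 for Lox and 45.1 for Sparc, most Neuro2A and ES replicate 1 and 2 wells lie at 0, and ES replicate 3 wells lie in between.

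The sequences that bear on the contractile and adhesion genes described further on are short stretches of their promoters that hold a CArG box, the motif bound by serum response factor. They are taken from RefSeq's GRCm38.p6 promoter table, searched over the 250 bases before each gene's start on both strands. The capitals mark the CArG box, taken as an exact CCWWWWWWGG, where W is A or T.
Myl9 (myosin regulatory light chain, chr2:156775283-156775332, plus strand): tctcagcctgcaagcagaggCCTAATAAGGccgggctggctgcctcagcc
Cnn2 (calponin 2, chr10:79988524-79988573, plus strand): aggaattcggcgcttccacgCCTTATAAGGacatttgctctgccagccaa
Myl6 (myosin essential light chain, chr10:128493030-128493079, minus strand): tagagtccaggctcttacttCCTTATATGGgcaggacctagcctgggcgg
Vcl (vinculin, chr14:20929151-20929200, plus strand): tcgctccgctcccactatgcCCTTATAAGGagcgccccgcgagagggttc
Actg1 (cytoplasmic gamma actin, chr11:120348556-120348605, minus strand): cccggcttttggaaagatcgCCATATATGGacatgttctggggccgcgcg

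These were all the genes of the contractile and the actin and adhesion lists with an exact match in that window. They were 3 of 18 matched contractile genes and 2 of 23 matched actin genes, against 1.62% of 27025 genes in the table. Boxes with a mismatched base were not searched for, so genes not shown may hold such a box. The motif GGAATG, bound by TEAD proteins, lay in the window of 7 of 18 contractile genes (Acta2, Cald1, Lmod1, Myh10, Mylk, Tagln2 and Tpm1) and 7 of 23 actin genes, against 14.4% of all genes. In the list of matrix proteases and their inhibitors, 4 of 14 matched genes (Mmp10, Mmp13, Mmp3 and Plaur) held TGACTCA or TGAGTCA, the motif of AP-1 factors, against 5.16% of all genes. A pair of them is shown with that motif in capitals. A match in letters is a description of the window and does not show that a factor bound there. Raised shares were not limited to these lists. GGAATG lay in 7 of 29 matched neuronal genes and the AP-1 motif in 4 of 14 chemokine and cytokine genes. The CArG box lay in 2 of 13 skeletal muscle type genes, but in 0 of 17 matrix glycoprotein genes. It also lay in 3 of 15 matched imprinted growth names: Igf2, Meg3 and Gtl2, another name of Meg3.
Mmp3 (stromelysin 1, chr9:7445756-7445802, plus strand): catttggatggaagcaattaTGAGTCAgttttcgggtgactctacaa
Plaur (urokinase receptor, chr7:24462394-24462440, plus strand): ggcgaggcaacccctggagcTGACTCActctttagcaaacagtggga

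The reads of a fibroblast were spread over many genes. The 20 genes with most reads took 11.9% of the gene reads, and 726 of the 11256 genes with a read (6.45%) were found in at least 50% of wells. Rpl35, a protein of the large ribosomal subunit, was the only gene read in all 92 wells. At the other end 5663 genes were read in under 10% of wells, 1420 of them in a single well. Apart from Lars2, described below, the genes with most reads were Gnas (the stimulatory G protein alpha subunit, 16741 CPM), Tmsb4x (thymosin beta 4, which binds actin monomers, 14142 CPM), Lgals1 (galectin 1, 13017 CPM) and Thbs1 (12051 CPM). Sparc, Col1a2, Tpm1, Vim, Tnc, Fn1, Lox, Col1a1, Ahnak and Acta2, all genes of the matrix or of the cytoskeleton, were also among the 20, next to Rpl35, Rpl32, Rtn4 and Ftl2.

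The fibrillar and associated collagens were read at 23804 CPM in MEF as a sum over 13 genes, against 18.7 CPM in Neuro2A and 0, 69.7 and 1990 CPM in ES replicates 1, 2 and 3. All 13 had reads in MEF. Of the 10 that reached 100 CPM, 10 were at least 10 times higher than Neuro2A and than ES replicates 1 and 2, where 12.1% of the 3070 genes at that level were. With ES replicate 3 as a further plate to exceed, 8 of the 10 remained, against 5.77% of all genes. All 10 were 10-fold above Neuro2A alone, against 19.5% of 3974 genes. Col1a2 stood at 8039 CPM in MEF, 6.44 in Neuro2A and 0, 17.4 and 648 in the ES plates. Col1a1 stood at 5160, 2.90, and 0, 5.81 and 408 CPM. In both, MEF was far above every other plate, and ES replicate 3 was above the other ES plates. Col12a1, a collagen of the fibril surface, had 2958 CPM in MEF and no Neuro2A read, at least 3064-fold higher. Col8a1, a short-chain collagen, and Col5a2, a type V chain that starts fibrils, had 2273 and 1873 CPM with no read in Neuro2A or in ES replicates 1 and 2. Col3a1, the type III chain of elastic tissues, was at 1833 CPM against 8.69 in Neuro2A, a ratio of 211 with a counting interval of 145 to 320.0. Per well the sum of the list ran from 4.54 over a median of 111 to 495 reads per 10000 gene reads, so no kept well was without collagen reads. The matching Neuro2A wells held 58 reads of these genes in all.

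Matrix glycoproteins and matricellular proteins formed the largest of the matrix lists, with 49233 CPM summed over 27 genes in MEF against 1478 in Neuro2A and 873, 1565 and 5212 in the ES plates. Of its 21 genes at 100 CPM or more, 18 were 10 times above Neuro2A and ES replicates 1 and 2 (12.1% over all genes), and 20 were 10-fold above Neuro2A (19.5%). Thbs1, which activates latent TGF-beta and binds many matrix proteins, had 12051 CPM against 3.54 in Neuro2A and 0, 0 and 1079 in the ES plates. Sparc, a collagen-binding protein, had 9732 CPM against 116.2 and 81.0, 514 and 1226. Sparc was thus the marker that the other plates also used to some degree. Tnc, a protein of embryonic and healing tissue, had 5983 CPM and no Neuro2A read, at least 6196-fold higher, with 0, 2.90 and 501 CPM in the ES plates. Fn1 (fibronectin) had 5948 CPM against 460 in Neuro2A and 673, 801 and 915 in the ES plates, where the 3 ES values lay close together. The secreted CCN proteins Ctgf and Cyr61, known targets of YAP and TEAD, had 1622 and 1296 CPM. Ctgf had no Neuro2A read and 20.4, 0 and 108 CPM in the ES plates, and Cyr61 had 3 Neuro2A reads, a ratio of 1342 with a counting interval of 459 to 6508. Over wells the sum of the list had a lowest value of 11.4, a median of 261 and a highest value of 817 reads per 10000.

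Basement membrane genes summed to 3599 CPM in MEF against 628 in Neuro2A and 693, 943 and 852 in the ES plates, and of 7 genes at 100 CPM or more 1 was 10 times above Neuro2A and ES replicates 1 and 2 (12.1% over all genes). Over Neuro2A alone 4 of 7 were 10-fold higher (19.5% over all genes), and 9 of 11 were above every ES plate (39.8% over all genes). Col4a1, a type IV collagen chain, had 1097 CPM against 147 in Neuro2A, while Nid1 (nidogen 1, which links laminin to type IV collagen) had 703 CPM and no read in Neuro2A but 176, 113 and 113 CPM in the ES plates. Lama5, a laminin chain of epithelial basement membranes, was at 79.8 CPM in MEF and at 149, 337 and 46.2 in the ES plates. MEF was thus above every ES plate for Col4a1 and Nid1 and between them for Lama5. Among proteoglycans and hyaluronan genes 6 of 7 at 100 CPM or more were 10 times above Neuro2A and ES replicates 1 and 2 (12.1% over all genes). Bgn (biglycan, a small leucine-rich proteoglycan) had 3039 CPM and no Neuro2A read, and Cd44, the hyaluronan receptor, had 3290 CPM against 1.93. Dcn (decorin), often used as a fibroblast gene, was read in 26 of 92 wells, and 46.7% of its 998 reads came from 1 of them.

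Genes that fold, cross-link and trim collagen summed to 12316 CPM in MEF against 1305 in Neuro2A and 763, 673 and 1683 in the ES plates. Lox, which cross-links collagen and elastin, had 5707 CPM, no Neuro2A read and 0, 5.81 and 485 CPM in the ES plates. Serpinh1, a chaperone for collagen in the endoplasmic reticulum, had 1838 CPM and no Neuro2A read, at least 1903-fold higher. P4ha1 and Plod2, which hydroxylate collagen prolines and lysines, were also used by Neuro2A, with 327 against 46.4 CPM and 382 against 82.1 CPM. Of the 14 genes at 100 CPM or more, 5 reached 10 times Neuro2A and ES replicates 1 and 2 (12.1% over all genes).

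The genes that remodel matrix include metalloproteases and their inhibitors. Timp1, Timp3 and Timp2, which block metalloproteases, had 3313, 2163 and 1139 CPM against 136, 128 and 7.40 in Neuro2A. Timp1 and Timp3 were therefore not absent from Neuro2A. The collagenase-type enzymes Mmp2 and Mmp14 had 443 and 351 CPM with no Neuro2A read, and Mmp3, whose AP-1 motif is shown above, had 106 reads, 77.4% of them in 1 of its 11 wells. Plaur, the other gene shown, had 175 reads in 25 wells and no Neuro2A read. Prss23, a secreted serine protease, was at 1897 CPM with no read in Neuro2A or in ES replicates 1 and 2. Of 13 genes of this list at 100 CPM or more, 11 were 10 times above those 3 plates (12.1% over all genes).

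Genes of smooth muscle type contraction took 1.61% of the gene reads of MEF, at 23873 CPM against 1363 in Neuro2A and 1105, 647 and 3149 in the ES plates. Tpm1 (tropomyosin 1) had 7876 CPM against 149 in Neuro2A and 42.2, 34.8 and 668 in the ES plates. Acta2 (smooth muscle alpha actin) had 4580 CPM against 2.90 and 0, 14.5 and 635. Both are classic genes of contractile fibroblasts, and both were above all other plates. Myl9, whose CArG box is shown above, had 1029 CPM against 1 Neuro2A read, a ratio of 3198 with a counting interval of 574 to 126315. Cnn2 had 1274 CPM against 4.51 in Neuro2A, and Myl6, the third contractile gene with a CArG box, had 397 CPM against 136, a ratio of 2.91. The genes with the box thus ranged from near absence in Neuro2A to a small ratio. Tagln (transgelin) had 651 CPM, but 63.7% of its 1288 reads came from 1 well. Of 17 genes at 100 CPM or more, 9 were 10 times above Neuro2A and ES replicates 1 and 2 (12.1% over all genes), and 11 were 10-fold above Neuro2A (19.5%). Per well the list ran from 0 over a median of 135 to 662 reads per 10000.

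The actin cytoskeleton and focal adhesion list was high on every plate and higher in MEF, with 36282 CPM against 5039 in Neuro2A and 7253, 3147 and 7431 in the ES plates. Tmsb4x had 14142 CPM against 228 in Neuro2A and 644, 392 and 1744 in the ES plates. Itgb1, the beta 1 chain of the collagen and fibronectin receptors, had 3766 CPM against 429 and 143, 49.3 and 365. Flna (filamin A, which cross-links actin) had 1492 CPM against 64.1, and Vcl, which ties integrins to actin and has a CArG box, had 1608 CPM against 156. Actg1, which also has one, did not set MEF apart from Neuro2A, with 880.4 and 829 CPM. Of 22 genes at 100 CPM or more, 6 reached 10 times Neuro2A and ES replicates 1 and 2, and of the intermediate filament, S100, annexin and galectin genes 9 of 15 did (12.1% over all genes). Vim (vimentin) was used by all plates, at 7352 CPM in MEF, 939 in Neuro2A and 962, 383 and 956 in the ES plates. By contrast Cav1 (caveolin 1) had 1176 CPM against 2.25 in Neuro2A and 0, 2.90 and 80.5 in the ES plates, and Lmna (lamin A and C) had 1086 CPM against 3 Neuro2A reads and 43.9, 151 and 262 CPM.

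**Figure D2:**
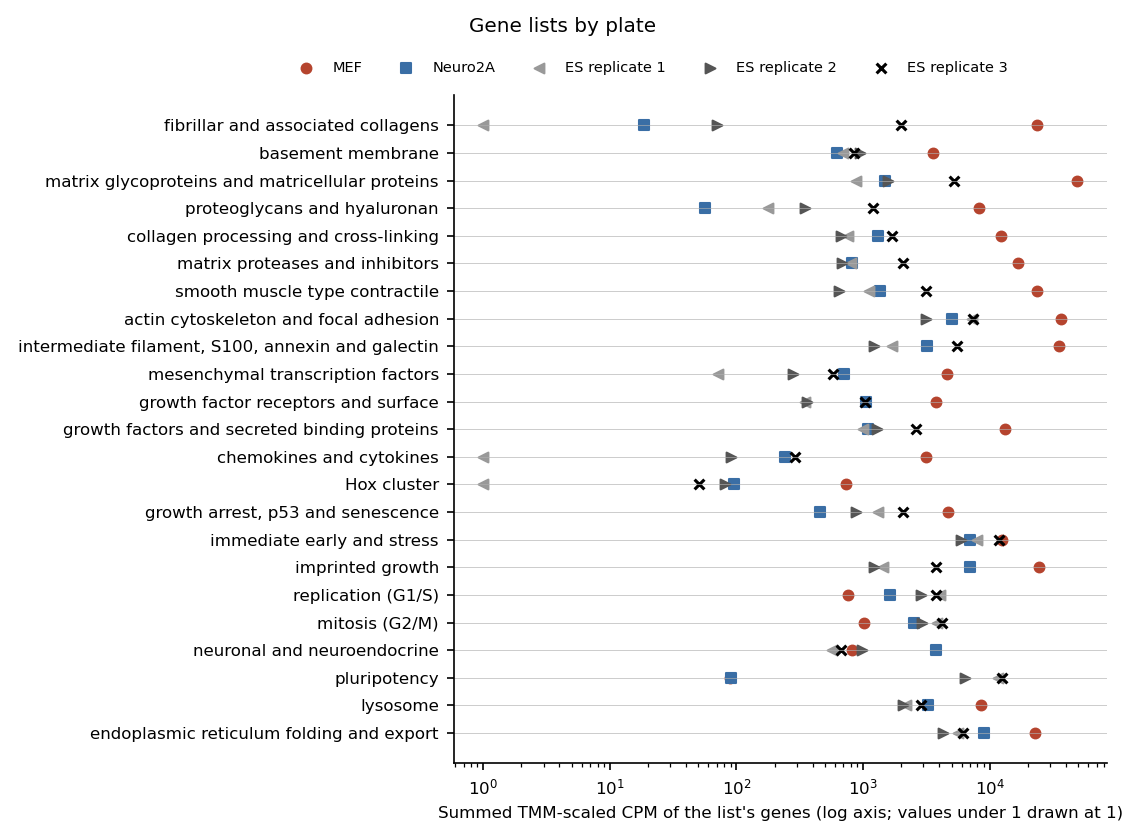
Summed TMM-scaled CPM of the 23 gene lists (horizontal axis, logarithmic, values under 1 drawn at 1) on each plate. Symbols are plates. MEF lies to the right of the other plates for the matrix, contractile and secreted factor lists, close to ES replicate 3 for immediate early genes, and to the left of the ES plates for replication, mitosis and pluripotency.

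Transcription factors of mesenchyme were read in fewer wells than the matrix genes. Prrx1, a homeobox factor of limb and body wall mesenchyme, had 1130 CPM, no Neuro2A read and 0, 0 and 94.6 CPM in the ES plates, and it was found in 45 of 92 wells (48.9%, 38.3% to 59.6%; 20.7% after thinning to 1000 reads) and in 0% of Neuro2A wells. Fosl2, an AP-1 subunit, had 876 CPM against 6.44 in Neuro2A. Hmga2, a chromatin protein of embryonic growth, had 643 CPM and no Neuro2A read. Twist1 and Prrx2 had 203 and 231 CPM, against 2.25 and 0 in Neuro2A. Zeb2 and Foxd1 went the other way, with 147 CPM in MEF against 251 in Neuro2A for Zeb2 and 105 reads against 560 for Foxd1. Of the 11 factors at 100 CPM or more in MEF, 8 were 10 times above Neuro2A and ES replicates 1 and 2 (12.1% over all genes).

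Secreted growth factors of several families were far above Neuro2A. Igf2 (insulin-like growth factor 2) had 3057 CPM against 8.05 in Neuro2A and 0, 0 and 348 in the ES plates. Inhba, the activin A subunit, had 1522 CPM against 2.25. Hbegf, a ligand of the EGF receptor, had 1244 CPM against 1 Neuro2A read, a ratio of 3863 with a counting interval of 693 to 152594. Bdnf, best known as a neurotrophin, had 1073 CPM against 8 reads in Neuro2A, and it came from 31 of 92 wells, with 31.3% of its 2124 reads in 1 well. Of 21 genes at 100 CPM or more, 13 were 10 times above Neuro2A and ES replicates 1 and 2 (12.1% over all genes), and 18 were 10-fold above Neuro2A (19.5%). Among receptors and surface proteins Igf2r had 749.6 CPM against 3.86, Axl 472 CPM against 0 and Thy1 216 CPM against 0. Fgfr1 was close on both plates, 685 and 409 CPM. The PDGF receptors, common fibroblast markers, were low: Pdgfrb had 132 reads in 20 wells, and Pdgfra had 26 reads in 2 wells against 301 reads in Neuro2A. The part of carried-over Neuro2A reads in the Pdgfra count was not tested.

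Chemokines split in 2 directions. Cxcl12 (which retains blood stem cells in their niche), Ccl2 and Ccl7 (which attract monocytes) and Csf1 (which keeps macrophages alive) had 1112, 668, 640.5 and 427 CPM in MEF against 0, 42.8, 0 and 10.3 in Neuro2A. All 4 were 10 times above Neuro2A and ES replicates 1 and 2 (12.1% over all genes). Of the 5 chemokine genes at 100 CPM on either plate, 1 was 10-fold lower in MEF, against 3.8% of all genes, and this was Cxcl1. Cxcl1 and Il6, which often mark activated fibroblasts, were lower in MEF than in Neuro2A, with 27 reads against 443 and 8 reads against 128. Over the 152 genes particular to Neuro2A, MEF held a median of 10.1% of the Neuro2A reads. The few MEF reads of Cxcl1 and Il6 may thus be carried over, which was not tested. Cxcl12 was read in 45.7% of MEF wells (35.2% to 56.4%), 15.2% after thinning, and in no Neuro2A well.

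Hox genes, which record position along the body, were sparse and concentrated in few wells. Of 23 Hox genes in the files 17 had reads, 1447 in all, in 45 of 92 wells. In 15 wells 2 or more Hox genes were read, and the highest number in a well was 7. Hoxb3 held 660 of these reads, of which 87.6% lay in 1 well, so its 333 CPM describes mainly that well. Hoxd13 had 157 reads in 6 wells, Hoxb2 128 in 12 and Hoxb9 113 in 8.

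Genes of growth arrest and of the p53 pathway were led by the cyclin kinase inhibitors. Cdkn1a (p21) had 978 CPM against 2.58 in Neuro2A and 21.0, 49.3 and 240.5 in the ES plates, and it was read in 59 of 92 wells (64.1%, 53.5% to 73.9%) and in 2.33% of Neuro2A wells, or 32.6% and 0% after thinning. Cdkn1c (p57) and Cdkn2b (p15) had 495 and 166 CPM and no Neuro2A read. Cdkn2a, which encodes p16 and Arf and rises with long culture, had 10 reads in 4 wells. Trp53 had 25.8 CPM in MEF and 24.8 in Neuro2A, below the 287, 165 and 274 of the ES plates. Of 10 genes of the list at 100 CPM or more, 4 were 10 times above Neuro2A and ES replicates 1 and 2 (12.1% over all genes). Imprinted growth genes gave 8 of 10, among them Grb10 with 1698 CPM and no Neuro2A read, Igf2 and Cdkn1c. Gnas, the most read of them, was also high in Neuro2A, at 16741 and 6621 CPM, a ratio of 2.53.

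The secretory and degradative machinery was above the other plates by smaller ratios. The endoplasmic reticulum list stood at 22804 CPM in MEF, 8997 in Neuro2A and 5660, 4314 and 6157 in the ES plates, with 1 of 25 genes 10 times above Neuro2A and ES replicates 1 and 2 (12.1% over all genes). Above every ES plate were 26 of its 27 genes (39.8% over all genes), and 15 of 27 had an unadjusted edgeR p under 0.05 and higher values in MEF (4.17% over all genes). The lysosome list stood at 8503, 3245, and 2174, 2052 and 2863 CPM, with 1 of 15 genes at 10 times and 16 of 18 above every ES plate. Calr (calreticulin) had 3106 CPM against 332 in Neuro2A, and Cd63 1170 against 238. Immediate early and stress genes stood at 12555 CPM in MEF, 6964 in Neuro2A and 7917, 5919 and 11810 in the ES plates. The order of MEF and ES replicate 3 depends on the TMM factors. As a share of the summed CPM of all genes tested, MEF was below ES replicate 3. Of 19 genes at 100 CPM on either plate 7 were 10-fold above Neuro2A (19.5% over all genes), and 15 of 24 tested were above every ES plate (39.8% over all genes). Hspa8 was at 2163 CPM in MEF, 2423 in Neuro2A and 1813, 1062 and 3527 in the ES plates.

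Markers of cell types that a fibroblast culture could also hold were near or at 0. None of 8 macrophage genes had a read in MEF. Pecam1, Kdr, Cdh5, Tek and Vwf of endothelium and Cdh1 of epithelium had no read either, and the endothelial reads there were came from 3 of 8 genes, 107 of 168 from Flt1. Erythroid genes had 49 reads, epithelial genes 92, adipocyte genes 21 and neural progenitor genes 3. Cartilage and bone genes had 384 reads, of which Sox9 held 247, 60.3% of them in 1 well, and Col2a1 79. Skeletal muscle type genes had 251 reads, with Des at 76 reads in 10 wells and Actc1 at 68 in 18. Against 92405 reads of the 6 fibroblast markers these were small numbers. Pluripotency genes summed to 88.9 CPM, 176 reads, of which Klf2 held 94, against 11675, 6404 and 12506 CPM in the ES plates. The 3 defining factors gave 2 reads, both of Sox2.

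The contrast between MEF and ES was tested with edgeR's quasi-likelihood test on the 5 plate sums, where the spread between plates can be taken from the 3 ES plates alone. At a Benjamini-Hochberg adjusted p of 0.05 it called 0 of 12271 genes higher and 0 lower (0% and 0%). At an unadjusted p under 0.05 it listed 512 higher (4.17%) and 516 lower (4.21%), and the smallest adjusted p of any gene was 0.435, for Sall4, a factor of pluripotency with no read in MEF and 1490, 1367 and 870.0 CPM in the ES plates. DESeq2 called 90 higher (1.16% of 7751) and 416 lower (5.37%). When ES replicate 1 was left out, the calls of edgeR numbered 432 higher (3.67% of 11762 genes) and 213 lower (1.81%). In that fit 10 of 13 collagens, 17 of 26 matrix glycoproteins, 11 of 21 contractile genes and 7 of 24 mesenchymal factors were called higher, beside the 3.67% over all genes. ES replicates 2 and 3 were then the sole ES plates, of which ES replicate 3 holds MEF reads.

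With all 5 plates, the collagens were above every ES plate in 13 of 13 genes, the matrix glycoproteins in 26 of 26 and the contractile genes in 20 of 21, against 39.8% of all genes tested. The median log2 difference was 5.02 for collagens, 4.61 for matrix glycoproteins and 4.36 for contractile genes, beside 0.08 over all genes tested. With library size alone in place of TMM the median over all genes moved to -0.67. Flna, Fn1 and Tmsb4x, which were read on every ES plate, had smaller errors than Col1a1. For Flna the log2 difference was 3.91 (SE 0.68), for Fn1 2.90 (SE 0.60) and for Tmsb4x 3.93 (SE 0.90), each with an edgeR adjusted p = 0.472. Col1a1 was far apart in level from ES but had a log2 difference of 5.21 with an SE of 2.86 (edgeR adjusted p = 0.594), while its ES values ran from 0 to 408 CPM. With all 5 plates 0 of 13 collagens had an unadjusted p under 0.05.

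Cell cycle genes lay below ES. The replication list, with the MCM helicase, ribonucleotide reductase and their partners, summed to 762 CPM in MEF, 1647 in Neuro2A and 4046, 2851 and 3801 in the ES plates. The mitosis list, with cyclins B, Aurora and Polo kinases and motor proteins, summed to 1017, 2530, and 3860, 2938 and 4231 CPM. Below every ES plate were 21 of 24 replication genes and 21 of 29 mitosis genes, against 23.3% of all genes tested. With edgeR 13 and 11 of them had an unadjusted p under 0.05 and lower values in MEF, and without ES replicate 1 the adjusted test called 9 of 24 and 7 of 29 lower, beside 1.81% of all genes.

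Neuro2A reads on the MEF plate bear on these lists directly. Over the 92 kept wells the MEF reads of neuronal and neuroendocrine genes followed the Neuro2A reads at the same barcode with a Spearman rho of 0.76, those of mitosis genes with 0.61 and those of replication genes with 0.52. For contractile genes rho was 0.11, but the 4247 Neuro2A reads at these barcodes stood beside 47265 MEF reads. A share near 10.1% of the Neuro2A reads would be a small part of those, so that value says little of carry-over. For collagens rho was 0.10, but they had only 58 Neuro2A reads there. With so few reads to follow, the collagen value cannot show how far Neuro2A material reached these wells. These points share well depth and barcode, and the values are descriptive. Over the 152 genes particular to Neuro2A rho was 0.56 at matching barcodes, while with the barcodes shifted against each other the median was -0.02 and the highest value 0.29. When the share of Neuro2A reads was subtracted well by well, 6.60% of the MEF gene reads were removed.

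The wells whose barcode held under 1000 Neuro2A gene reads give the same lists with little Neuro2A material. There were 8 such wells with 196093 reads and a median of 6438 reads, and 84 others with a median of 13494. Replication genes took 2.29 reads per 10000 in the 8 wells and 5.35 in the 84, mitosis genes 2.55 and 7.18, and neuronal genes 2.65 and 5.70. Contractile genes took 162.5 and 161.2, collagens 128 and 163, and matrix glycoproteins 288 and 336. The pooled values of the cycle and neuronal lists were thus lower by more than 2 times where the partner was nearly empty. Those of the contractile list were not, but carried-over reads would be a small part of its many MEF reads. The values of the cycle and neuronal lists rest on few wells: of the 8, replication genes were read in 4, mitosis genes in 3 and neuronal genes in 2. The deepest of the 8, with 79483 gene reads, held 86 cycle reads. The 84 other wells include 3, described below, that held 1129 cycle reads at barcodes without a Neuro2A read of the same gene. Their part in the difference of the cycle lists was not tested. With 8 wells the difference itself was not tested either.

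**Figure D3:**
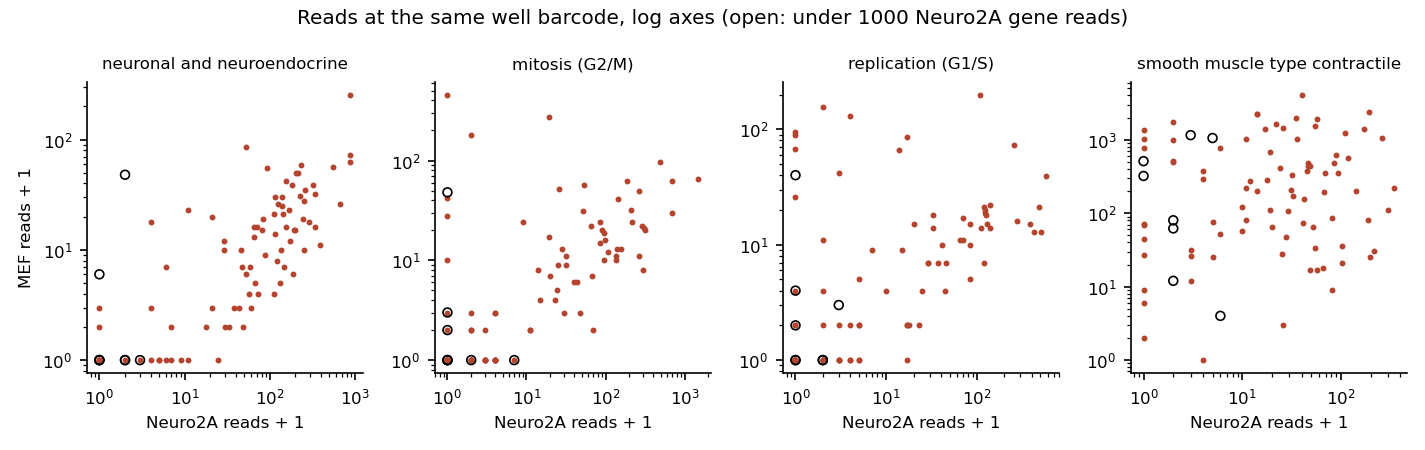
Reads of 4 gene lists in each kept MEF well (vertical axis, reads + 1) against the Neuro2A well of the same barcode (horizontal axis, reads + 1), both axes logarithmic. Points are wells, and open circles are the 8 wells with under 1000 Neuro2A gene reads. Neuronal reads follow the Neuro2A well with a rho of 0.76, contractile reads with 0.11.

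Of 14 neuronal genes at 100 CPM or more on either plate, 5 were 10-fold lower in MEF (3.8% over all genes) and 1 was 10-fold higher (19.5%). Carried-over Neuro2A reads can hold a gene above that limit: over all genes the 10-fold lower calls numbered 151, and 350 after subtraction. Gene by gene the list held 2 kinds. Stmn2, Chgb and Snap25, all with reads in Neuro2A, had 108, 61 and 17 reads in MEF, of which 0, 1 and 0 lay at a barcode without a Neuro2A read of that gene. Stmn2 regulates microtubules in growing axons, Chgb is a granin of secretory vesicles, and Snap25 is a protein of synaptic vesicle fusion. Rtn1, Nefm and Mab21l1 had no read in Neuro2A, so their 208, 62 and 42 MEF reads have no Neuro2A partner, but 190 of the 208 Rtn1 reads came from 1 well. For Gata3 118 of 124 reads were without a partner. In all, 613 of 1612 neuronal reads (38.0%) lay at barcodes with no Neuro2A read of the same gene.

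For cycle genes that share was 2343 of 3521 reads (66.5%), 60.0% for mitosis and 75.3% for replication. Kif23 (a motor of the midbody) had 234 of 250 reads without a partner, Bub1 (a spindle checkpoint kinase) 180 of 212 and Mki67 (the Ki-67 protein) 164 of 205. Birc5, by contrast, had 2 of 106, and Top2a 6 of 46. Such reads occurred in 65 of the 92 wells. Counting per well the cycle genes with at least 3 MEF reads and none in Neuro2A at that barcode, 3 wells had 10, 8 and 7 of 53 genes, the next had 3, and 60 wells had none. The 3 wells were picked after their values were seen. They held 1129 of the 2343 reads (48.2%), and the other wells 1214.

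The first of these wells had Bub1 with 166 reads, Mki67 with 125, Kif23 with 85 and Cdc2a, the main mitotic kinase, with 32. The second had Kif20a, another mitotic motor, with 82 reads, Rrm2 with 43 and Ccnb2, a cyclin B, with 21. The third had Kif23 with 139 reads, Aurka with 51, Mcm4 with 49, Cdc20, which starts anaphase, with 38 and Plk1 with 32. All 3 were deep wells, with 73386, 89286 and 37585 gene reads, and their collagen reads of 166, 229 and 127 per 10000 lay above the median of 111. Collagen reads per 10000 rose with depth over the kept wells (rho 0.53), and pooled over the plate they were 161. Cycle reads made 70.9, 30.6 and 90.5 per 10000 in the 3 wells, against a median of 8.84 over all wells. They were not the highest by that measure: 6 other wells lay above the first, between 71.8 and 133 per 10000, and 11 lay above the second. In 4 of the 6, including the highest, all cycle reads lay at barcodes with a Neuro2A read of the same gene. Depth moves with this count of genes, since deep wells can show more genes at 3 reads, and its part was not tested. For neuronal genes the highest count in any well was 2.

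**Figure D4:**
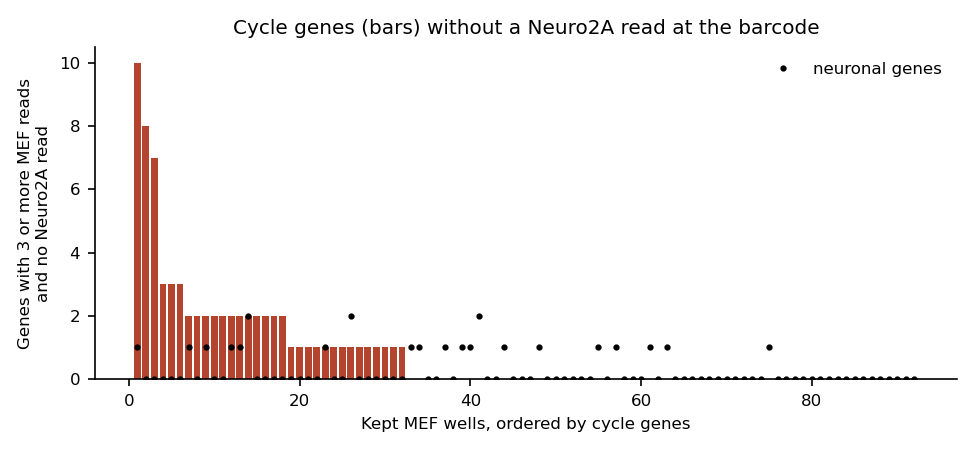
Number of cycle genes (bars, of 53) and of neuronal genes (points) with at least 3 MEF reads and no Neuro2A read at the barcode, in the 92 kept MEF wells ordered by cycle genes. The first 3 wells reach 10, 8 and 7 cycle genes, the next 3, and no well exceeds 2 neuronal genes.

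Spread between fibroblasts was measured in the 64 wells with at least 5000 reads, each thinned to 5000, as the coefficient of variation (CV) of a gene over wells relative to the trend over 1639 genes read in at least 25% of these wells. The markers lay near the trend, Sparc and Col1a1 below it and the other 4 above it. Sparc had a CV of 0.619, Thbs1 0.710, Col1a1 0.785, Col1a2 0.888, Lox 0.950 and Tnc 1.02, where the trend gave 0.674, 0.596, 0.892, 0.774, 0.935 and 0.827. Acta2, at 0.744, lay under its trend of 1.02, and S100a6 at 0.731 under 1.28. Ctgf, at 0.852 against 1.48, was also even. Cd44, at 1.86 against 1.22, and Ogn (osteoglycin), at 3.38 against 1.74, were uneven.

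The 10 genes farthest below the trend were Uqcrq and Atp5e (subunits of respiratory complexes), Slc25a3 (the mitochondrial phosphate carrier), Rplp2 and Rpl13a (ribosomal proteins), Actg1, the unnamed gene 2310003F16Rik and the gene models LOC277692, LOC100040551 and LOC100040823. Uqcrq had a CV of 0.792 where the trend gave 1.69. All 10 were still in the lowest 10% of genes when wells were thinned to 10000 reads. The 10 genes farthest above were Lars2, Exoc5, Sfrs2, Grpel1, Yap1, Dph3, Fbln2, Snag1, Ahnak and Tmed10, and each drew between 27.1% and 77.7% of its thinned reads from 1 well. Exoc5, for example, had 160 reads in 1 well and 5 in the next. At 10000 reads per well 4 of the 10 were still in the highest 10%, Lars2, Yap1, Fbln2 and Tmed10. Fbln2 (fibulin 2, a matrix protein) had 236 thinned reads in 1 well, 26 in the next and a median of 3, and Yap1 94, 8 and 0. In 7 of the 10, more than 50% of the thinned reads came from 1 well, while Lars2 had 779 reads in 1 well and 264 in the next, and Ahnak had a median of 13. Reads do not show from how many molecules they came.

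**Figure D5:**
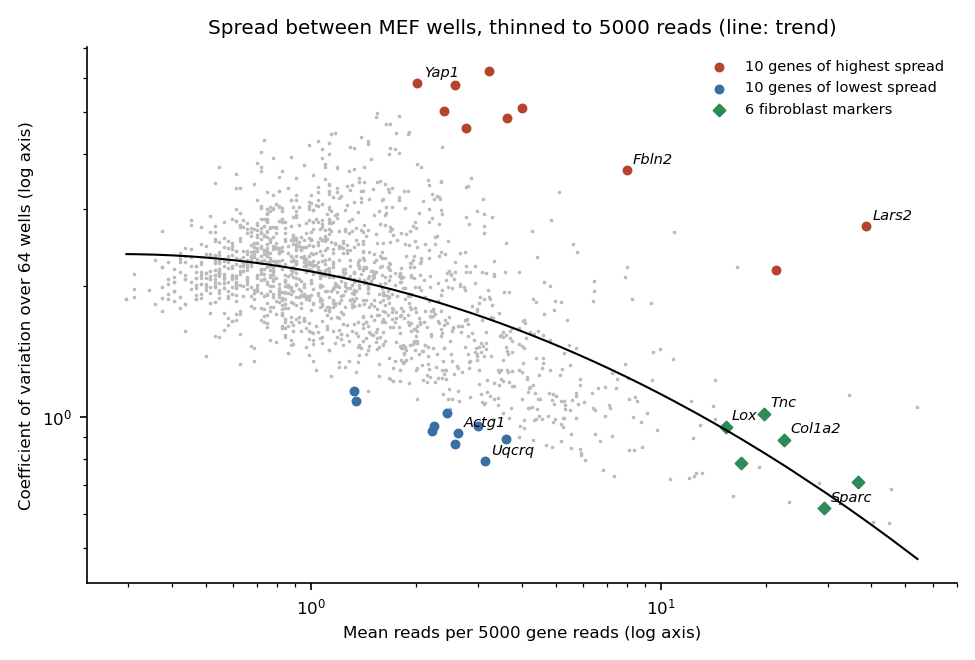
Coefficient of variation over 64 MEF wells thinned to 5000 reads (vertical axis) against mean reads per 5000 (horizontal axis), both logarithmic, for 1639 genes. The line is the trend, and colours mark the 10 genes of highest and of lowest residual and the 6 fibroblast markers. Lars2 lies highest above the line with a CV of 2.73, Uqcrq at 0.792 below it, and Sparc at 0.619 near it.

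The ranking of all genes by residual correlated with that at 10000 reads at a rho of 0.79 (1628 genes) and with the ranking of Neuro2A wells at 0.39 (834 genes), a description across genes that share mean levels. Lars2, a mitochondrial leucyl tRNA synthetase by name, had the most reads of any gene, 36954, of which 40.7% came from 1 well. Across wells its reads followed those of the LSU-rRNA repeat at a rho of 0.77 in MEF (92 wells), 0.67 in Neuro2A and 0.40, 0.55 and 0.58 in the ES plates. With mitochondrial reads rho was -0.01 in MEF. The Lars2 row and rRNA reads thus moved together, and how much of the Lars2 count is rRNA was not tested.

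Single genes of 1 matrix list were only weakly correlated between cells, and sums of lists more clearly. Between single collagen genes the median rho over 36 pairs was 0.10 in the 64 thinned wells, and between matrix glycoproteins 0.09 over 120 pairs. Sums of the collagen list followed those of matrix glycoproteins at 0.60, proteoglycans at 0.60, growth factors at 0.57 and collagen processing at 0.53. With contractile genes the collagen sum had a rho of 0.25 and with immediate early genes -0.10. The collagen sum ran from 8 over a median of 65.5 to 145 reads per 5000, with a CV of 0.471, and the contractile sum from 19 over 71 to 199, with a CV of 0.428. These wells share the plate and the pooled amplification, and the values describe this plate only. Neuro2A reads were not subtracted for these sums. The well with the deepest Neuro2A partner, 203348 gene reads, had 12.4 collagen and 37.2 matrix glycoprotein reads per 10000. The medians over the 92 kept wells were 111 and 261. The part of Neuro2A reads in these correlations was not tested. Wells with a barcode ending in G were deeper, with a median of 17782 reads in 24 wells against 8597 in the other 68, and showed more genes at 1000 reads, 643.5 against 476, and their part in these correlations was not tested.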

How the data were processed

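The files hold raw read counts per gene and well barcode, deposited by the authors as 1 table per plate, aligned with Bowtie per the submitters' processing notes. Genome build, annotation, strand and the handling of reads with several hits are not stated there, so gene models with near copies (LOC names, ribosomal proteins) and antisense partners are uncertain. Cells were sorted into 96 wells, reverse transcribed with a well barcode, pooled and amplified by PCR, per the labels' protocols. Gene reads of wells that reached 1000 were summed per plate. The plate sums went into edgeR 4.0.16 in R 4.3.3 (TMM, quasi-likelihood test, 2-sided, groups ES, Neuro2A and MEF) with DESeq2 1.42.0 as an alternative. An SE is the log2 difference divided by the square root of the test's F. MEF and Neuro2A are 1 plate each and were compared by ratio. Shares have exact Clopper-Pearson 95% intervals, and ratios on 0 reads use a floor of 3 reads per library. Carry-over was estimated from genes at 100 CPM or more and 10 times every ES plate (for Neuro2A to MEF). The scripts were tested on simulated data. Named genes are list members, the 20 with most reads, the 20 with the largest ratio over Neuro2A and ES replicates 1 and 2, and the 10 at each end of the spread, and exceptions are said in the text. The members, lists and rules were chosen with earlier results of these data known. Replicate numbers of ES follow accession order. Nothing in the labels says the ES plates came from separate cultures, so p-values measure the spread between these plates, which may be technical. A few genes are not reported here.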

Additional observations from a re-analysis of the deposited data

Results flagged for a closer look

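The 4 MEF wells left out for having under 1000 gene reads still held fibroblast reads: 42 reads of the 6 marker genes among their 2049 gene reads. They lie outside all comparisons above.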

How the results depend on the processing

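The number of genes called between MEF and ES by edgeR, 0 higher and 0 lower, depended on the ES plates. DESeq2 called 90 higher and 416 lower, leaving out 1 ES plate in turn gave 0 to 432 higher and 0 to 213 lower, both highest without ES replicate 1, and no filter on low counts gave 9 lower. No paired analysis was possible because the ES replicate numbers follow accession order and MEF and Neuro2A have 1 plate each. The 177 genes at 10 times every other plate became 446 at 5 times, 19 at 20 times, 29 with library size alone, 311 with carried-over reads subtracted, 372 without ES replicate 3, 102 in wells of 5000 or more reads and 62 without wells whose barcode ends in G. Of 774 genes 10-fold above Neuro2A, 453 were left in number with library size alone, and the 151 genes 10-fold below numbered 274 with library size alone, 350 after subtraction and 257 in wells of 5000 or more reads. Plate-wide reads per 10000 were 161 for collagens, 333 for matrix glycoproteins, 161 for contractile, 5.15 for replication, 6.87 for mitosis and 5.50 for neuronal genes. With Neuro2A reads subtracted they were 172, 355, 171, 4.69, 5.84 and 3.60. Without wells whose barcode ends in G they were 171, 344, 168, 5.73, 7.39 and 4.79. In wells with under 1000 Neuro2A reads at the barcode collagens stood at 128, matrix glycoproteins at 288, replication at 2.29, mitosis at 2.55 and neuronal genes at 2.65. In wells of 5000 or more reads collagens stood at 163 and matrix glycoproteins at 337, and without the deepest well collagens stood at 156, contractile genes at 156 and neuronal genes at 5.78. The median share of Neuro2A reads in MEF was 10.1%, and 7.06% for genes at 20 times ES. Of the 10 most uneven genes 4 were in the highest 10% at 10000 reads per well, where all 10 could be ranked, and 4 at 1000 reads, where 4 could be ranked. Of the 10 most even genes 8 could be ranked at 1000 reads, and 1 of them was in the lowest 10%. The alternatives without barcodes ending in G for edgeR, and those for the ratio to Neuro2A, were chosen after seeing the data. The cause of these shifts was not tested. Depth limits mainly the 28 wells under 5000 reads.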
